A study of Mus musculus with 2 samples.

Results

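The genes described here are 33 that encode the enzymes of cholesterol and fatty acid synthesis, the proteins that control their transcription, and a sterol carrier. They were taken by gene symbol from a list of the pathway and make up 33 of 55536 annotated genes, of which 22028 are protein-coding. All 33 were found in both libraries. The data are total RNA-seq, in which ribosomal RNA is depleted and the remaining RNA is sequenced, of RNA from the nuclei of bone marrow-derived macrophages of C57BL/6J mice. These are primary macrophages grown in culture from marrow precursors. The series holds 1 group of 2 libraries, and both carry the same treatment: Lipid A at 100 ng/ml for 12 hours, then 12 hours without it, then Lipid A again at 100 ng/ml for 60 min. Lipid A is the moiety of endotoxin that is sensed by TLR4. The labels call the material nuclear in one field and nucleoplasmic in another, and they call the libraries biological replicates while giving both the same donor identifier. Whether separate mice were used is not stated, and each SD over the 2 libraries may thus hold technical variation. Replicate 1 was made from 1 µg of RNA and replicate 2 from 500 ng. With 1 group there is no contrast between conditions, nothing here gauges how the cells respond to Lipid A, and no test was made.

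Cells make cholesterol from acetyl-CoA through mevalonate, isoprenoids, squalene and a series of sterols, and make fatty acids from the same precursor through malonyl-CoA. The genes of both routes are activated by SREBP transcription factors, which are held in the endoplasmic reticulum by SCAP and INSIG proteins while sterols are plentiful, and are carried to the Golgi and cut free by the site-1 and site-2 proteases when sterols run low. In macrophages this programme is known to be tied to membrane growth, to the handling of lipid taken up from dead cells and lipoproteins, and to TLR signalling.

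Expected counts summed over annotated genes were 23630328 in replicate 1 and 15687634 in replicate 2, and the 33 genes took 0.0953% and 0.0991% of them. A single member held between 64.0 and 3358 expected counts in replicate 1 and between 41.0 and 2596 in replicate 2. All 8 macrophage markers were at 10 TPM or more in both libraries, where TPM is the length-corrected share of each transcript, scaled to a fixed total. None of the 5 neutrophil, 5 lymphoid, 5 adipocyte or 5 hepatocyte markers reached 1 TPM in both, and the adipocyte and hepatocyte markers were listed at 0 throughout, so the lipid synthesis genes were read in RNA with no measured adipocyte or hepatocyte marker. In bulk RNA, fewer cells of a type and less RNA per cell cannot be told apart. TPM values are not centred between the libraries. The median nuclear-encoded protein-coding gene had a log2 TPM ratio, replicate 2 over replicate 1, of -0.46, and 29 of the 33 members likewise had the higher TPM in replicate 1. Among these were all 15 members whose deposited TPM intervals did not overlap between the libraries. Both counts rest on TPM that is not centred, and neither was taken over all genes. Differences between the libraries are therefore given below as TMM-normalised log2 ratios of expected counts, and TPM is used for levels.

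Nearly all of the pathway was detected, at low to moderate levels. At 1 TPM or more in both libraries were 32 of the 33 genes, against 39.9% of protein-coding genes. The exception was Elovl6. Hsd17b7 (1.32 and 1.00 TPM), Scd1 (1.01 and 2.21 TPM) and Acat2 (1.97 and 1.06 TPM) stood just inside. At 10 TPM or more in both were 7 members (Hmgcs1, Msmo1, Srebf2, Insig1, Mbtps2, Elovl5 and Fads1), against 14.9% of protein-coding genes. None reached 100 TPM in both, against 1.43%. The median member was at 6.69 TPM in replicate 1 and 3.75 in replicate 2, beside 9.20 and 6.56 for the protein-coding genes of 1 TPM or more. By role, the medians were 12.6 and 9.71 TPM for the 6 SREBP control genes, 6.69 and 4.65 for the 11 enzymes from squalene synthase onward, 4.45 and 3.09 for the 8 fatty acid genes and 3.88 and 2.12 for the 7 early mevalonate genes. The control genes were thus the highest group in both libraries and the early mevalonate genes the lowest. In the second deposited quantification (kallisto format) the control genes were again highest, but the fatty acid genes had the lowest median in both libraries. The lowest place is therefore not settled. Protein-coding genes summed to 321549 TPM in replicate 1 and 250653 in replicate 2, the rest of the scale being taken by other RNAs. When TPM was rescaled over nuclear-encoded protein-coding genes alone, 25 members stood at 10 TPM or more, and with the second quantification 4 did. The share of all protein-coding genes was not counted on these scales, so 14.9% is not their background.

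**Figure D1:**
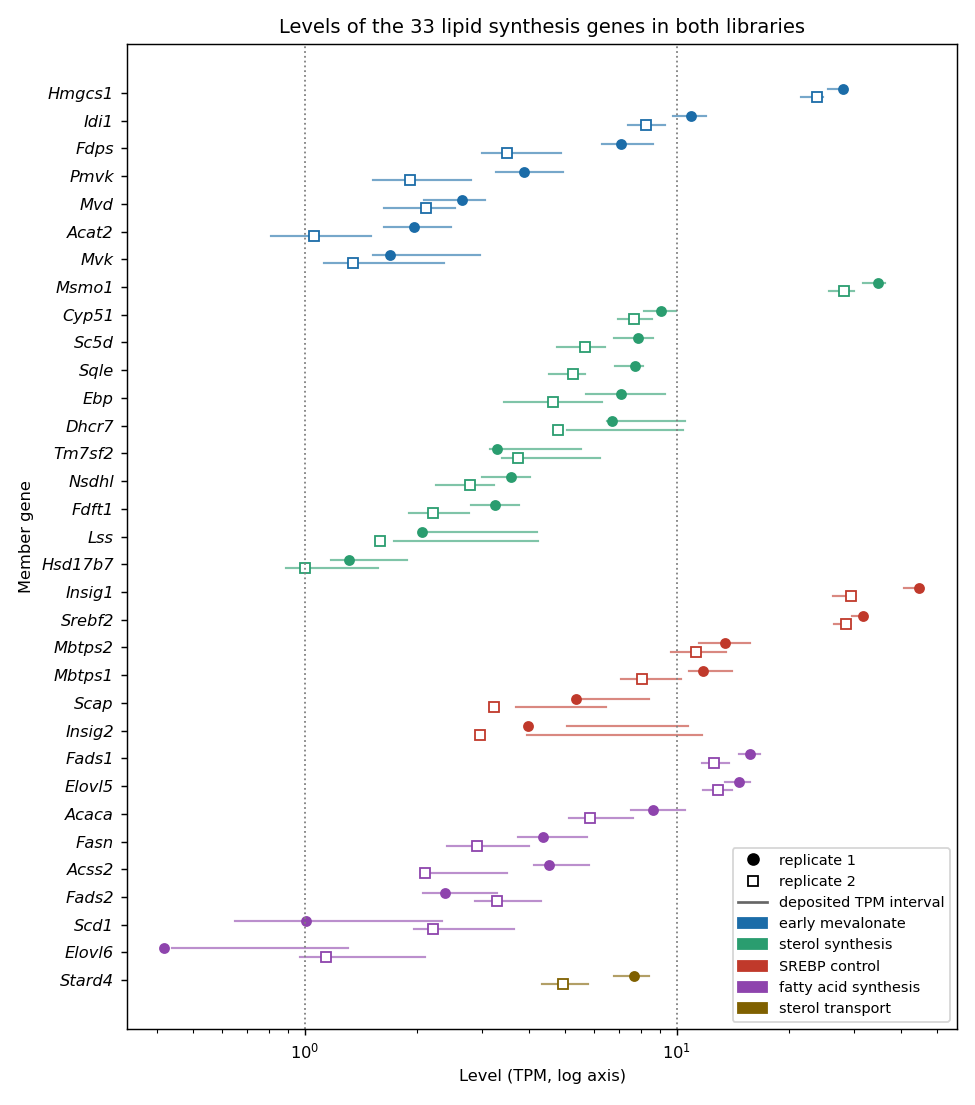
Level of each member gene in TPM (log axis) in replicate 1 (filled circles) and replicate 2 (open squares), coloured by role and ordered by mean level within it, with lines for the deposited TPM interval and dotted lines at 1 and 10 TPM. Insig1, Msmo1, Srebf2 and Hmgcs1 were the 4 highest members by mean, and Elovl6, at 0.420 and 1.14 TPM, had the lowest mean.

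Control of the pathway was represented by 6 genes that spanned a wide range. Insig1 (chr5:28071363-28078662, mm10), the sterol-sensing retention protein that is itself a target of SREBP, was the highest member, at 44.8 TPM in replicate 1 and 29.4 in replicate 2 (37.1 ± 10.8, SD, n = 2). Srebf2 (chr15:82147181-82205379), which encodes the SREBP that acts mainly on cholesterol genes, was at 31.7 and 28.6 TPM (30.2 ± 2.18, SD, n = 2). In replicate 1 the deposited interval of Insig1, 40.9 to 45.0 TPM, lay above those of all other members. In replicate 2 its interval, 26.3 to 30.1 TPM, overlapped those of Srebf2 (26.5 to 29.2) and Msmo1 (25.6 to 29.9), so the order of these 3 was not resolved there.

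Insig2, the second retention protein, was at 3.99 and 2.96 TPM. Within each library Insig1 exceeded Insig2 by 3.46 and 3.27 on the log2(TPM + 0.1) scale (3.36 ± 0.13, SD, n = 2), and the deposited intervals did not overlap in either. The size of this difference depended on the estimate, since the deposited TPM of Insig2 lies below its own interval (5.06 to 10.7 in replicate 1). With the deposited posterior mean TPM it was 2.21, and with the second quantification 2.60. All of these have Insig1 as the higher of the pair.

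Scap, the escort protein that carries SREBP out of the endoplasmic reticulum, was at 5.36 and 3.23 TPM. Its level was below that of its cargo Srebf2 in both libraries, with log2 differences of -2.54 and -3.11. Mbtps1, the site-1 protease, was at 11.8 and 8.08 TPM, and Mbtps2, the site-2 protease, was at 13.5 and 11.3 TPM. The proteases were close to each other: the log2 difference, Mbtps1 minus Mbtps2, was -0.20 and -0.48 (-0.34 ± 0.20, SD, n = 2), and their deposited intervals overlapped in both libraries.

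Among the 7 early mevalonate genes, Hmgcs1 stood apart from the rest. Hmgcs1 (chr13:119690379-119708260) encodes the cytosolic HMG-CoA synthase, and was at 28.0 TPM in replicate 1 and 23.9 in replicate 2 (25.9 ± 2.88, SD, n = 2). Idi1, the isomerase that makes dimethylallyl diphosphate, followed at 10.9 and 8.26 TPM. Fdps, which makes farnesyl diphosphate, was at 7.09 and 3.50 TPM. The deposited intervals of these 3 did not overlap one another in either library, so their order held in both.

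The other early enzymes were lower. Pmvk, the phosphomevalonate kinase, was at 3.88 and 1.92 TPM. Mvd, the decarboxylase that yields isopentenyl diphosphate, was at 2.65 and 2.12 TPM, and Mvk, the mevalonate kinase, at 1.70 and 1.35 TPM. Acat2, a cytosolic thiolase that condenses acetyl-CoA at the head of the pathway, was at 1.97 and 1.06 TPM. Acat2, whose product Hmgcs1 uses, thus lay far below Hmgcs1 in both libraries, and the intervals of Pmvk, Mvd and Mvk overlapped one another in replicate 2.

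The promoter of Hmgcs1 is shown because it was the only member promoter that held a core sterol regulatory element, the site SREBP binds. RefSeq promoters (GRCm38.p6, 250 bases before to 50 after the start) were at hand for 27 of the member genes, as 33 promoters. No entry was matched for Fdps, Fdft1, Sqle, Scd1, Fads1 and Stard4. The letters TCACNCCAC, searched on both strands, occurred in 1 of the 33 member promoters and in 1.24% of all 32851. The 5-letter CCAAT, the box bound by NF-Y, occurred on either strand in 20 of 33 member promoters (60.6%) and in 37.4% of all. Promoters with 2 or more CCAAT were 12 of 33 (36.4%), against 11.7%. GGGCGG, the GC box bound by Sp1, occurred in 24 of 33 (72.7%), against 35.7%. These are matches of letters and not measured binding, and a promoter without a match lacks only those letters in this window. The 32851 promoters were not limited to genes expressed here, while nearly all members were expressed. The sets are thus unlike, and the differences in share were not tested. The 250 bases before the start of Hmgcs1 (chr13:119690101-119690350, plus strand) and of Fasn (chr11:120824548-120824797, minus strand) follow 5′ to 3′ on the gene's strand, with TCACNCCAC and CCAAT, or its reverse complement ATTGG, in capitals. Fasn, the fatty acid synthase, was chosen after its values were seen, as a gene of the other branch.
Hmgcs1: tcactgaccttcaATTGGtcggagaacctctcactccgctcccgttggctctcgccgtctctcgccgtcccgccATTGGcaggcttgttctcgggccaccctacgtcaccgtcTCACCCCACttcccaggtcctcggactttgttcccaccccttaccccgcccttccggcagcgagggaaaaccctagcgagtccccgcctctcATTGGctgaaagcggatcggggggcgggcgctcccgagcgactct
Fasn: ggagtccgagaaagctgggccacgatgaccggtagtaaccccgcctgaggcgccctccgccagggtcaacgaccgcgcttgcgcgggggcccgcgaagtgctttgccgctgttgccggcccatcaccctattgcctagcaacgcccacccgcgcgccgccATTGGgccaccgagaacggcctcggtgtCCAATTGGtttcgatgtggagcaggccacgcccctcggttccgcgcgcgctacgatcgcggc
In Hmgcs1 the TCACNCCAC match begins 137 bases before the start, and CCAAT matches, all on the opposite strand, begin 237, 176 and 45 bases before it. In Fasn the 3 CCAAT matches begin 90, 62 and 59 bases before the start, the last 2 of them overlapping on opposite strands. Over all member promoters, CCAAT lay 12 times on the gene's strand and 31 times on the other.

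From squalene synthase onward, 11 enzymes turn farnesyl diphosphate into cholesterol, and all but Msmo1 were below 10 TPM in both libraries. Msmo1 (chr8:64718139-64733792), the methylsterol monooxygenase that starts removal of the methyl groups at the fourth carbon, was at 34.8 TPM in replicate 1 and 28.2 in replicate 2 (31.5 ± 4.62, SD, n = 2). Cyp51, the lanosterol demethylase, was next at 9.07 and 7.68 TPM. Sc5d, the lathosterol desaturase, was at 7.87 and 5.66 TPM. The deposited interval of Msmo1 lay above those of the other 10 in both libraries, while those of Cyp51, Sc5d and Dhcr7 overlapped in replicate 1.

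Sqle, the squalene epoxidase and a rate-limiting step, was at 7.73 and 5.27 TPM. Ebp, the sterol isomerase, was at 7.10 and 4.65 TPM. Dhcr7, which makes cholesterol from its last precursor in the Kandutsch-Russell branch, was at 6.69 and 4.80 TPM. By TPM these 3 stood below Cyp51 and Sc5d, but their deposited intervals overlapped that of Sc5d in both libraries. Nsdhl, a sterol dehydrogenase that acts with Msmo1, was at 3.59 and 2.78 TPM, and its partner Hsd17b7, the keto-reductase of the same step, was at 1.32 and 1.00 TPM. Msmo1 and Nsdhl, which act in succession on the same methyl groups, thus had non-overlapping levels in both libraries.

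Fdft1, the squalene synthase that commits farnesyl diphosphate to sterols, was at 3.24 and 2.22 TPM. Tm7sf2, a sterol reductase of the nuclear envelope and endoplasmic reticulum, was at 3.28 and 3.75 TPM. Lss, the lanosterol synthase that closes the sterol rings, was at 2.07 and 1.59 TPM. Tm7sf2 was the only sterol enzyme with the higher TPM in replicate 2, and its deposited intervals (3.15 to 5.55 and 3.39 to 6.23) overlapped. The deposited TPM of Lss in both libraries, of Dhcr7 in replicate 2, of Scap and Insig2 in both and of Elovl6 in replicate 1 lies below the deposited interval, so the levels of these 5 genes are less certain than the rest. Stard4, a soluble carrier that moves sterol between membranes, was at 7.66 and 4.96 TPM.

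Among the fatty acid genes, the highest were an elongase and a desaturase of polyunsaturated chains. Fads1, the desaturase that completes arachidonic acid, was at 15.7 and 12.6 TPM, and Elovl5, the elongase of polyunsaturated chains, was at 14.7 and 12.9 TPM. Their deposited intervals overlapped in both libraries. Fads2, the desaturase that acts before them, was at 2.38 and 3.29 TPM. Fads1 exceeded Fads2 by 2.67 and 1.90 on the log2 scale, with separate intervals in both libraries.

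In the synthesis of saturated chains, Acaca, the acetyl-CoA carboxylase that makes malonyl-CoA, was at 8.63 and 5.86 TPM. Fasn was at 4.36 and 2.90 TPM. Acss2, which makes acetyl-CoA from acetate, was at 4.53 and 2.11 TPM. The carboxylase was the higher of the committed pair in both libraries, with an interval (7.54 to 10.5 and 5.14 to 7.63) above that of Fasn (3.74 to 5.73 and 2.42 to 4.01).

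The enzymes that extend and desaturate these chains were also low. Scd1 (chr19:44394455-44407879), the stearoyl-CoA desaturase that makes oleic acid, was at 1.01 TPM in replicate 1 and 2.21 in replicate 2 (1.61 ± 0.849, SD, n = 2). Elovl6 (chr3:129532355-129638495), the elongase of palmitic acid, was at 0.420 and 1.14 TPM (0.780 ± 0.509, SD, n = 2). Elovl5 exceeded Elovl6 by 4.83 and 3.39 on the log2 scale, so the direction held in both libraries while the size did not. Scd2, a desaturase of the same family outside the member list, was at 70.2 and 79.7 TPM. The Scd genes are similar in sequence and can exchange reads, so the split of reads between Scd1 and Scd2 is uncertain.

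Other genes of the pathway gave the context of these levels. Of 64 genes in 5 further lists, 49 were at 1 TPM or more in both libraries and 22 at 10 or more. All 10 genes of sterol esterification, lysosomal export and transfer were at 1 TPM or more and 8 at 10 or more, with a median of 78.6 and 64.4 TPM. Npc2, which hands lysosomal cholesterol to the membrane, was at 239 and 132 TPM, and Lipa, the lysosomal acid lipase, at 162 and 112 TPM. The genes that release, store and move cholesterol thus had a median level above that of every role group of the synthesis genes in both libraries.

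The fatty acid enzymes outside the member list were mixed, with 15 of 26 at 1 TPM or more. Acsl1, which activates long-chain fatty acids, had the highest mean, at 113 and 62.7 TPM, followed by Scd2, which was the higher of the pair in replicate 2. Under 0.1 TPM in both libraries were Scd3, Elovl2, Elovl3, Elovl4, Elovl7 and Acsl6, paralogs known mainly from other tissues. The non-sterol isoprenoid branch had 10 of 11 at 1 TPM or more, with the highest means for the prenyltransferase subunits Pggt1b (16.0 and 14.8 TPM) and Rabggtb (14.9 and 10.4 TPM). The partners in sterol-regulated degradation at the endoplasmic reticulum had 9 of 10, with the highest means for the ATPase Vcp (73.7 and 55.5 TPM) and the ubiquitin ligase Syvn1 (25.2 and 18.3 TPM). Of the 7 lipogenic factors linked to carbohydrate and thyroid hormone, 5 were at 1 TPM or more, with the highest means for Mlxip (17.0 and 12.3 TPM) and Usf1 (15.3 and 5.71 TPM), and Mlxipl and Thrsp were under 0.1 TPM in both.

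Differences between the libraries were small for most members. The median log2 ratio of normalised counts, replicate 2 over replicate 1, was 0.01, beside 0.00 over all 14052 genes with a mean count of 10 or more, and 31 of the 33 members lay within the middle 90% of all genes (-0.93 to 0.95). Lower in replicate 2 by any amount were 16 of 33, against 49.9% of all genes. Over 2-fold higher in replicate 2 were 2 members, Scd1 and Elovl6, against 4.31%. None was over 2-fold higher in replicate 1, against 4.29%. Medians by role were 0.19 for the fatty acid genes, 0.05 for sterol synthesis, -0.05 for the early mevalonate genes and -0.08 for SREBP control. The libraries also differed elsewhere: 7 of 8 macrophage markers were lower in replicate 2, with a median log2 ratio of -0.39 and summed levels of 4358 and 2615 TPM, and mitochondrial genes held 3.43% and 5.95% of counts. The part of these in the members' differences was not tested.

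**Figure D2:**
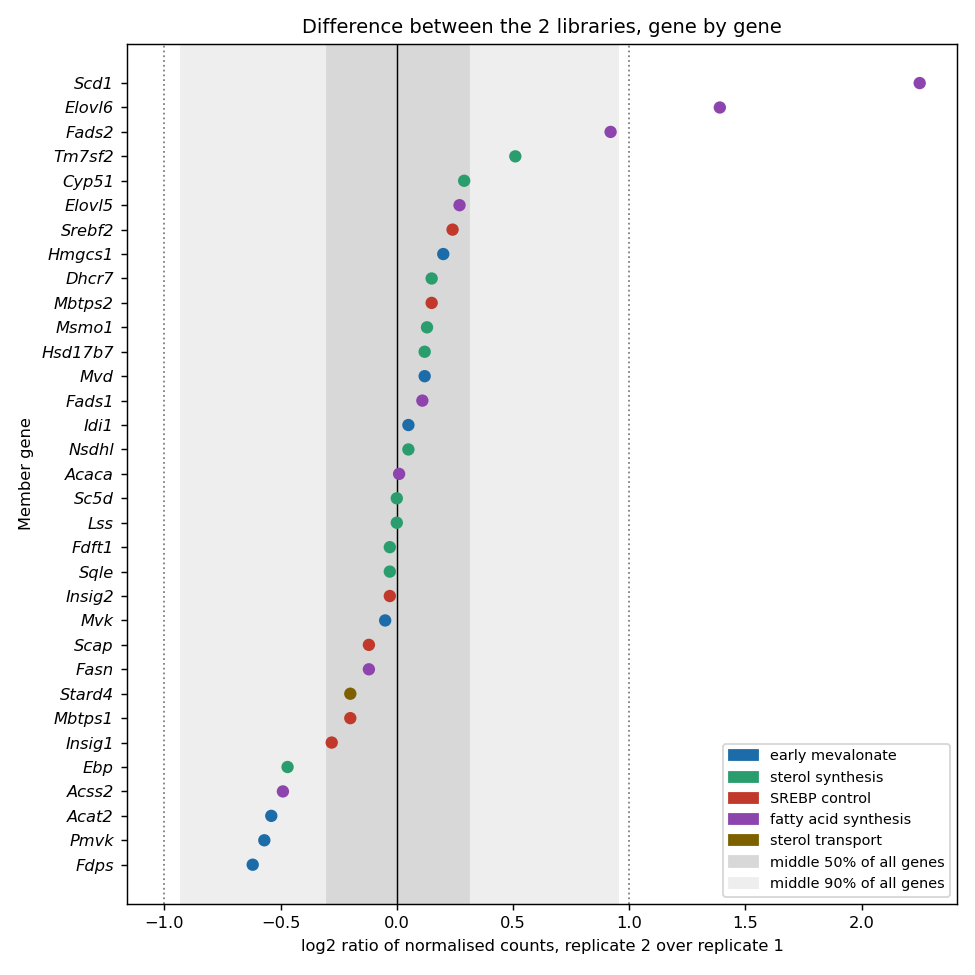
TMM-normalised log2 ratio of expected counts, replicate 2 over replicate 1, for each member, coloured by role. Grey bands hold the middle 50% and 90% of all 14052 genes with a ratio, and dotted lines mark a 2-fold difference. Scd1 at 2.25 and Elovl6 at 1.39 lie outside the wider band, Fads2 lies near its edge at 0.92, and the other members lie between -0.62 and 0.51.

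By normalised counts, the desaturase Scd1 had the highest ratio of the members. It held 77.0 expected counts in replicate 1 and 241 in replicate 2, or 3.26 CPM (expected counts scaled to library size, 95% Wilson interval 2.61 to 4.07) and 15.4 (13.5 to 17.4). The log2 ratio was 2.25, a 4.76-fold difference, and ranked 14th from the highest of 11138 protein-coding genes with a ratio. It ranked highest of the 8781 at 1 TPM or more in both libraries, but that floor leaves out genes low in 1 library. Scd1 itself passed the floor narrowly, at 1.01 TPM in replicate 1. In TPM the ratio was smaller, 1.06 without centring and 1.52 after it, and lay below that of Elovl6 (1.25 and 1.72). The replicate 1 TPM of Elovl6 lies below its own deposited interval, so this order is not settled. Posterior mean TPM were 0.810 and 1.48 for Elovl6 and 1.39 and 2.67 for Scd1. A transcript of 329 bases, Scd1-202, was given 0.390 TPM in replicate 1 and 0 in replicate 2. The full-length Scd1-201 was at 0.620 TPM (deposited interval 0.467 to 0.735) and 2.21 TPM (1.86 to 2.39). These transcript intervals do not overlap, while those of the whole gene do (0.652 to 2.34 and 1.97 to 3.66 TPM). The second quantification gave a log2 ratio of 2.02 for the gene.

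Elovl6 held 64.0 and 110 expected counts, with a log2 ratio of 1.39. Fads2 held 184 and 228, with a ratio of 0.92, and ranked 91st of the same 8781 genes and 360th of the 11138. The deposited TPM intervals of both genes overlapped between the libraries. The 3 highest members by ratio were all fatty acid desaturases or elongases, though Fads2, at 1.89-fold, was under 2-fold apart. Log2 ratios were lower for the related Elovl5 (0.27), Fads1 (0.11) and, outside the list, Scd2 (0.64). The grouping of the 3 highest was seen in the data and was not tested. Of the other fatty acid genes, Acaca was at 0.01, Fasn at -0.12 and Acss2 at -0.49. At the other end were Fdps (-0.62), Pmvk (-0.57) and Acat2 (-0.54), all early mevalonate genes with at most 212 counts in a library.

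Highly counted members differed less. Srebf2, with 3358 and 2596 expected counts, had a log2 ratio of 0.24, and Hmgcs1, with 2075 and 1556, had 0.20. Insig1, with 2522 and 1357, had -0.28. The counting intervals of these 3 did not overlap between libraries (for Insig1, 103 to 111 and 82.0 to 91.2 CPM), yet all 3 ratios lay inside the middle 50% of all genes, -0.30 to 0.31. Ratios of the remaining members were 0.51 for Tm7sf2, 0.29 for Cyp51, 0.15 for Dhcr7 and Mbtps2, 0.13 for Msmo1, 0.12 for Hsd17b7 and Mvd, 0.05 for Idi1 and Nsdhl and 0.00 for Sc5d and Lss. They were -0.03 for Fdft1, Sqle and Insig2, -0.05 for Mvk, -0.12 for Scap, -0.20 for Mbtps1 and Stard4 and -0.47 for Ebp.

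Because the RNA is nuclear, the share of each gene on transcripts annotated as retained intron is part of its description. These are GENCODE models that keep intron sequence, and a quantifier assigns to them reads that fall in that intron, so incompletely spliced precursor RNA and a stable retained-intron RNA cannot be told apart. Summed over the members, retained-intron transcripts held 13.2% of TPM in replicate 1 and 17.0% in replicate 2 (15.1% ± 2.68, SD, n = 2), beside 17.0% and 20.4% over the 8773 nuclear-encoded protein-coding genes of 1 TPM or more. Retained-intron transcripts held 10% or more of the gene's TPM in both libraries in 13 of the 32 members of 1 TPM or more, against 43.0% of those genes. In 8 of the 32 they held none in either library, against 37.6% of those genes. The median member share was 8.70% and the median over all those genes 8.92%.

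The share varied by role. It was 21.2% and 29.4% for SREBP control, 10.7% and 13.4% for sterol synthesis, 9.55% and 13.0% for the early mevalonate genes and 4.77% and 3.67% for the fatty acid genes. In this first quantification, control genes were the highest group and fatty acid genes the lowest in both libraries. The second put 27.4% and 33.4% of Acaca on the retained-intron Acaca-207, against 4.17% and 5.12% in the first. The lowest place of the fatty acid genes is therefore not settled. With the second quantification the share over all members was 21.9%, and as a share of expected counts, which weights long transcripts more, it was 9.19%.

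**Figure D3:**
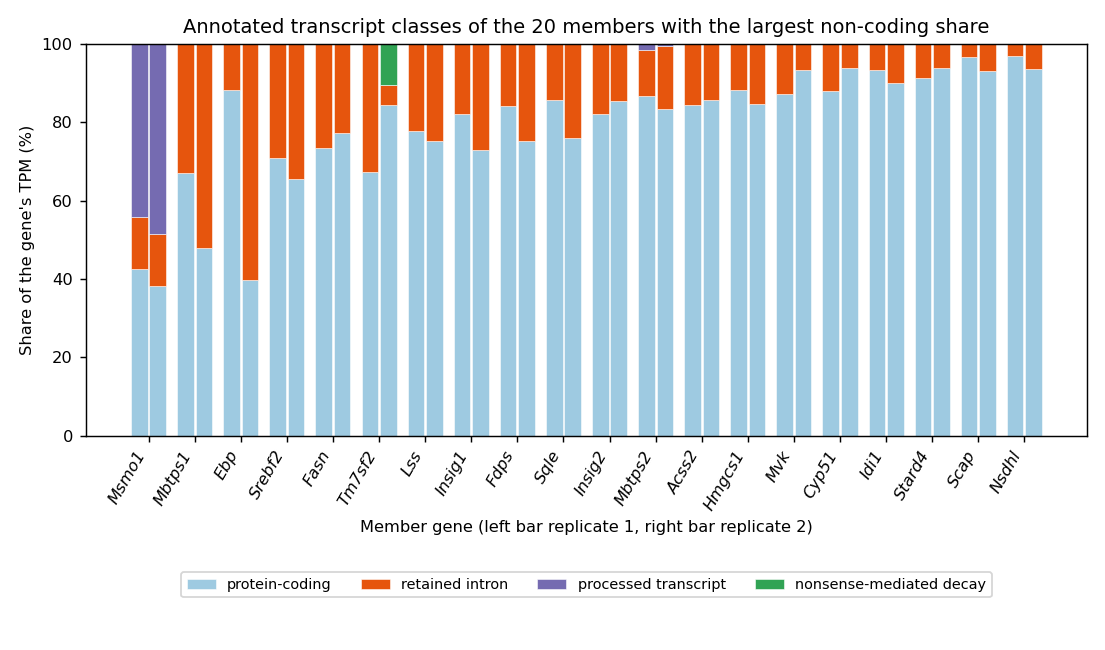
Share of each gene's TPM (%) on transcripts of each annotated class for the 20 members with the largest non-coding share, replicate 1 on the left and replicate 2 on the right of each pair of bars. Msmo1 is the only gene shown with a large processed-transcript share (44.2% and 48.6%), and Ebp differs most between the libraries (11.8% and 60.3% retained intron).

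In Insig1, the spliced and the intron-holding transcripts differed unequally between the libraries. Spliced Insig1-201 was at 36.7 TPM (deposited interval 33.7 to 36.5) in replicate 1 and 21.4 TPM (19.4 to 21.6) in replicate 2. Insig1-202, which begins inside intron 3 and runs through 396 bases of it into exon 4, was at 8.04 TPM (6.23 to 9.35) and 8.0 TPM (6.17 to 9.35). On the uncentred TPM scale, the spliced form was lower in replicate 2 with separate intervals while the intron-holding form was level. The share of the latter was 18% and 27.2%. The second quantification gave 21.6% and 26.4%.

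Srebf2 had 29.0% and 34.6% of its TPM on retained-intron transcripts. The spliced Srebf2-201 was at 22.0 and 18.7 TPM. Srebf2-205, which ends in intron 4 after 995 bases of it, was at 4.74 and 6.71 TPM. Srebf2-207, which holds the whole 947-base intron 2 and 726 bases of intron 4, was at 4.47 and 2.80 TPM. On the uncentred TPM scale these 2 forms went opposite ways between the libraries, with separate deposited intervals. The intervals were 3.73 to 5.37 and 5.48 to 7.38 for Srebf2-205, and 3.69 to 4.92 and 2.17 to 3.24 for Srebf2-207. On that scale the median nuclear-encoded protein-coding gene was also lower in replicate 2 (log2 ratio -0.46). The fall of Srebf2-207 is not corrected for this. In Hmgcs1, Hmgcs1-204, which ends in intron 4 after 946 bases, held 11.8% and 15.4%.

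The junctions that set these transcripts apart are shown as 60 bases each, 5′ to 3′ on the gene's strand, from the GENCODE M21 transcripts on mm10, with the exon in lower case and the retained intron in capitals. The first crosses the acceptor before exon 4 of Insig1 (chr5:28075032-28075091), and the others cross donors: after exon 4 of Srebf2 (chr15:82172870-82172929), after exon 2 of Srebf2 (chr15:82170125-82170184) and after exon 4 of Hmgcs1 (chr13:119701211-119701270). They were chosen after the transcript values were seen.
Insig1-202: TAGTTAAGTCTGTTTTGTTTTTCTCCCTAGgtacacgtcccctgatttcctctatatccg
Srebf2-205: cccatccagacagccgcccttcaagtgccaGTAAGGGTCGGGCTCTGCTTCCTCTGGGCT
Srebf2-207: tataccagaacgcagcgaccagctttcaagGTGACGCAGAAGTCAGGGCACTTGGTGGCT
Hmgcs1-204: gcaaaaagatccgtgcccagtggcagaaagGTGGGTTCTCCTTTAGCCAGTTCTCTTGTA
In the acceptor the capitals end in AG, and in each donor they begin with GT, the usual splice-site letters, and the exon bases on each side are coding.

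**Figure D4:**
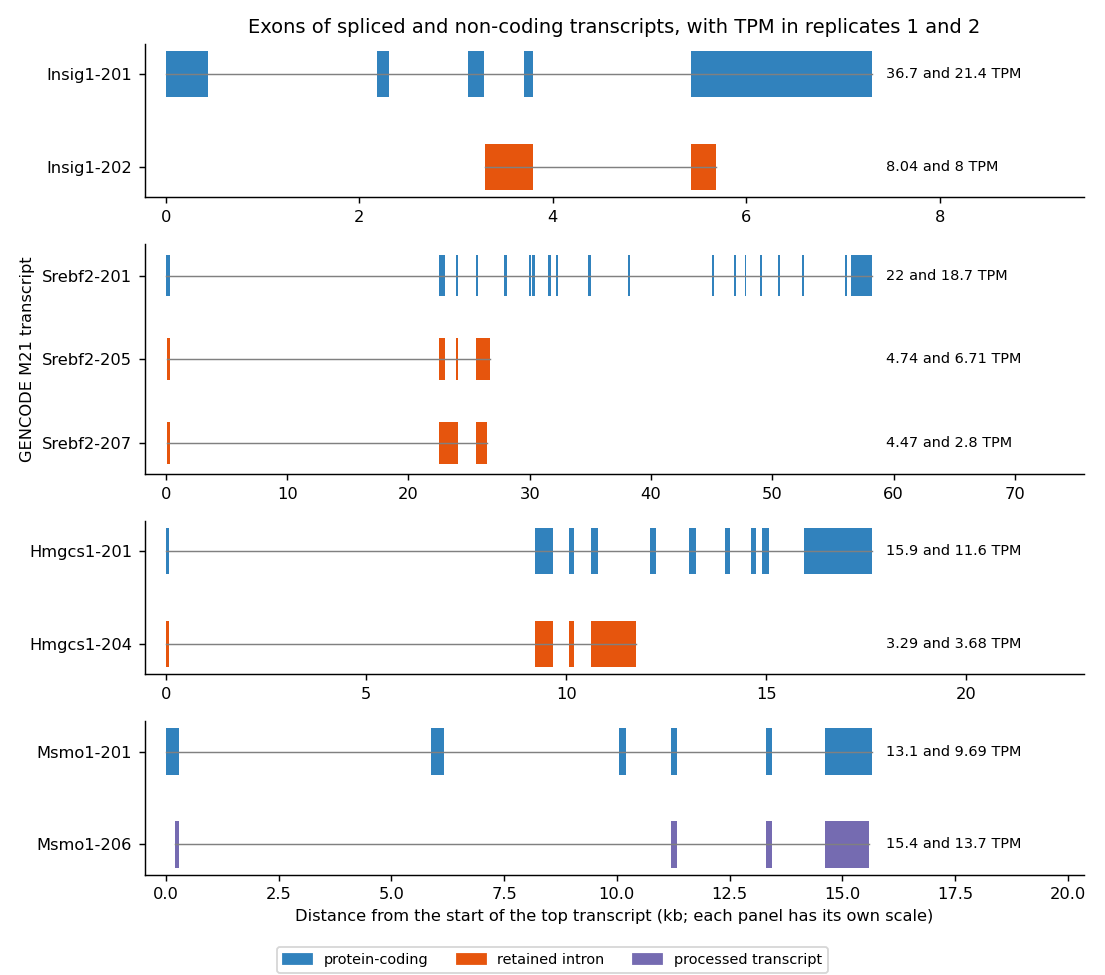
Exons (boxes) of spliced and non-coding GENCODE M21 transcripts of Insig1, Srebf2, Hmgcs1 and Msmo1, by distance in kb from the start of the gene's top transcript, with TPM in replicates 1 and 2 at the right. The retained-intron models are short and widen an exon into its intron, and Msmo1-206 lacks exons 2 and 3 of Msmo1-201.

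Of the members of 1 TPM or more, the 5 with the highest non-coding share were Msmo1 (59.7%), Mbtps1 (42.5%), Ebp (36.1%), Srebf2 (31.8%) and Fasn (24.7%), as means over the libraries. In Msmo1 most of it was 1 processed transcript, Msmo1-206, at 15.4 and 13.7 TPM, beside 13.1 and 9.69 for the coding Msmo1-201. Msmo1-206 skips exon 2 (285 bases, with the start codon) and exon 3 (149 bases). The deposited intervals of the 2 forms overlapped in replicate 1 (12.2 to 17.1 and 11.0 to 14.1) and met at their edges in replicate 2 (10.7 to 15.6 and 7.74 to 10.7). The share of Msmo1-206 was 44.2% and 48.6%, and 32% and 37.5% with the second quantification, so a large part of the high Msmo1 level lay on a transcript not annotated as coding.

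Mbtps1 carried its share on several retained-intron transcripts, which together held 32.9% and 52.2%. The spliced Mbtps1-201 was at 7.29 TPM (6.05 to 7.62) and 3.58 TPM (2.73 to 3.97). On protein-coding transcripts alone, the log2 difference of Mbtps1 from Mbtps2 was -0.92 in place of -0.34. In Mbtps2, a coding transcript of 529 bases, Mbtps2-206, held 42.7% and 42.6%, beside 36.4% and 38.9% for the full-length Mbtps2-201. Short models receive large TPM from few reads, and here 48.9 and 35.4 expected counts stood behind Mbtps2-206 against 595 and 478 behind Mbtps2-201. Mbtps1-201 was above the full-length Mbtps2-201 in replicate 1 (7.29 and 4.93 TPM) and below it in replicate 2 (3.58 and 4.42 TPM). The direction of the pair thus depends on the transcripts counted.

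Ebp had 11.8% of its TPM on retained-intron transcripts in replicate 1 and 60.3% in replicate 2. The change of share rests on few counts: Ebp-204, which holds 204 bases of intron 2, had 0 and 21.7 expected counts. The second quantification gave it 0% and 18.5%. Fasn held 22.2% and 22.8% on Fasn-203, which keeps the whole 175-base intron 41, from 19.6 and 11.8 expected counts, and the second quantification gave 15.0% and 0%. The retained share of Ebp and Fasn is therefore poorly measured at this depth.

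Coding transcripts that differ by a skipped exon also divided some members, chosen here after their values were seen. Sqle-201 was at 6.62 TPM (5.27 to 6.87) in replicate 1 and 1.59 TPM (0.220 to 2.96) in replicate 2. Sqle-202, which lacks exon 7 (96 bases), was at 0 TPM (upper bound 0.814) and 2.40 TPM (0.813 to 3.52), so its intervals met at their edges. The gene's total count ratio was -0.03, so the libraries differed in which form the reads were given to and not in their sum. The second quantification placed 8.37% and 36.1% on Sqle-202, against 0% and 45.6% here, the same direction with a smaller difference.

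Fads1-202, which lacks exon 2 (111 bases), held 27.2% and 43.3% of Fads1, but 0.427% and 22.2% with the second quantification, so its share is not settled. Elovl6-202, which lacks exon 4 (152 bases), held 0% and 44.7% of Elovl6, from 0 and 24.6 expected counts, and 25.5% and 65.4% with the second quantification. Its deposited TPM intervals overlapped, with an upper bound of 0.203 in replicate 1 and 0.182 to 0.756 in replicate 2. The leading transcripts of the other genes paired above were Insig2-201 with 82.2% and 79.1%, Scap-201 with 84.9% and 93.2%, Fads2-201 with 100% in both and Elovl5-201 with 99.5% and 100%. The second quantification gave less to Insig2-201 (39.2% and 45.9%) and Scap-201 (61.8% and 68.3%), the same to Fads2-201, and 89.8% and 93.3% to Elovl5-201.

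The 2 deposited quantifications differed in scale. The second gave lower TPM by a median log2 of -1.44 in replicate 1 and -0.56 in replicate 2, beside -1.36 and -0.52 over the 8765 genes compared. Pearson's r across the 33 members was 0.98 and 0.96 on the log2 scale, a description over genes from the same reads. The log2 difference ranged from -1.75 (Fads1) to -0.45 (Mvd) in replicate 1 and from -1.26 (Ebp) to 0.40 (Stard4) in replicate 2. For Stard4 the second quantification put 51.7% and 55.6% of the gene on the retained-intron Stard4-204, against 8.63% and 6.25% in the first, and for Lss it put 52.9% and 61.5% on Lss-207, against 6.76% and 6.33%. The isoform shares of these genes, and of Acaca, depend on the quantifier.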

How the data were processed

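Total RNA-seq of nuclear RNA was analysed in 1 group of 2 libraries, grouped from the labels. Per the file headers and deposited readme files, the authors deposited RSEM-format tables by gene and by transcript, made from alignments to the transcriptome, and a kallisto-format table by transcript made from the reads, on mm10 with GENCODE M21. The sources used here do not give the aligner, the versions of these tools or whether strand was used. The deposited expected counts divide ambiguous reads among transcripts, so paralogs, overlapping and antisense genes can exchange counts. The deposited TPM divides by effective length and is scaled to a fixed total over all rows, so short RNAs weigh heavily. The other deposited values are bounds of a TPM interval, of unstated level.

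Expected counts were rounded and scaled by TMM in edgeR 4.0.16 (R 4.3.3) over genes with a mean count of 10 or more, and log2 ratios used a prior count of 0.5. Pairs were compared as log2(TPM + 0.1). DESeq2 1.42.0 gave other size factors. Tables and figures were made in Python 3.11.15 with pandas 2.3.3, numpy 2.4.6, scipy 1.17.1 and matplotlib 3.10.9. Wilson intervals (95%) treat rounded expected counts as independent reads and reflect counting error alone. They do not allow for the division of ambiguous reads or for PCR copies, which no molecular identifiers were used to remove. The scaling was tested on simulated data. No condition could be compared, so no test was made. Symbols, transcript classes, exons and coordinates came from GENCODE M21, and promoters from RefSeq.

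The members, lists and markers were chosen with earlier results of these data known. Every member is named, as are the 2 highest genes of each other list and those under 0.1 TPM in both libraries, the 5 members with the highest non-coding share and the leading transcript of each pair. Promoters with TCACNCCAC were to be shown; other transcripts, the junctions and the Fasn promoter were picked after their values were seen. Of 65 other listed genes, 1 (Cert1) matched no symbol. Alternatives were other quantifications, scalings, floors, filters, prior counts and pseudocounts, and each library alone.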

Additional observations from a re-analysis of the deposited data

How the results depend on the processing

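With 2 libraries of 1 group, the spread rests on 1 difference. No paired analysis was possible because there is only 1 group. Members at 1 TPM or more in both libraries numbered 13 with a floor of 5 TPM, 27 with the second quantification and 32 or 33 under the other alternatives, including each library alone. At 10 TPM the 7 members became 4 with the second quantification and 25 with TPM rescaled over nuclear-encoded protein-coding genes, and 7 to 9 with 1 library. The median member level of 5.29 TPM became 2.54 and 21.9 under those same alternatives, and 3.75 to 6.69 with 1 library. Protein-coding genes sum to 321549 and 250653 TPM, so these levels depend on what else is on the scale. Shares over all protein-coding genes were not counted under these alternatives.

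The median log2 ratio of the members, 0.01, became -0.08 with the second quantification's counts, -0.02 with no count filter, 0.03 with a mean count of 100 or more, 0.07 with centred TPM, -0.39 with TPM not centred and 0.00 without Scd1, Elovl6 and Fads2, a choice made after seeing the data. Its sign is thus not settled. Members over 2-fold higher in replicate 2 numbered 1 with a mean count of 100 or more, which leaves out Elovl6, and 2 under the other 6 alternatives. Those over 2-fold higher in replicate 1 numbered 1 with TPM not centred and 0 under the other 6. The ratios of Scd1, Elovl6 and Fads2 kept their sign throughout, Scd1 from 1.06 to 2.27. Leaving out a library was not possible for a ratio between libraries.

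The retained-intron share of 15.1% became 21.9% with the second quantification and 9.19% as a share of counts, and 13.2% to 17.0% with 1 library. The 5 pair differences kept their sign in 35 of 35 alternatives, including the posterior mean TPM, which was added after seeing the data. A change of pseudocount could not alter a sign, and the single-library values already shared it, so these alternatives could not reverse a pair. The full-length transcripts, not among the alternatives, put Mbtps1-201 above Mbtps2-201 in replicate 1 (7.29 and 4.93 TPM). With 1 library the pair differences ranged from 3.27 to 3.46 for Insig1 and Insig2, -0.48 to -0.20 for Mbtps1 and Mbtps2, 1.90 to 2.67 for Fads1 and Fads2, 3.39 to 4.83 for Elovl5 and Elovl6 and -3.11 to -2.54 for Scap and Srebf2. Few counts stand behind some isoform shares, such as those of Ebp-204 and Fasn-203.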
